A study of Rattus norvegicus with 12 samples.

Results

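Cytosolic ribosomal protein genes encode the proteins that, with ribosomal RNA, build the large (Rpl genes) and small (Rps genes) subunits of the ribosome that translates nuclear mRNAs. They were chosen here by name and level. A gene row was a member when its symbol had the form of Rpl or Rps with a number, or was Rplp0, Rplp1, Rplp2 or Rpsa, and when its normalized count averaged at least 100 over the 6 libraries of each deposited table. Of 98 and 96 rows with such a name in the tables of the first and the second comparison, 81 and 72 reached that level. The 72 rows that reached it in both, of 20400 genes in the series, are described below; 44 belong to the large and 28 to the small subunit. They carry 68 symbols, because Rpl32, Rpl7a, Rplp1 and Rps10 each have a more and a less abundant row. The level that chose the members is therefore no finding.

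The libraries come from wild-type rat cells labelled as bone marrow mesenchymal stem cells (BMSCs), grown in chondrogenic induction medium, with 3 libraries in each of 4 groups. BMSC-CT cells were exposed for 1 week to CTGF, the connective tissue growth factor, before TGF-beta1 was given, and BMSC-C cells were the control. BF-D cells were treated with docetaxel, a drug that stabilizes microtubules, and BF-C cells were not; the series design describes the BF cells as induced fibrotic chondrocytes. The dose and duration of docetaxel, the way the BF cells were made and the origin of the replicates (separate cultures or not) are not given in the sources used here, so p-values measure the spread between these libraries, which may be technical. Each library held 15580310 to 19870047 reads. All 12 mesenchymal stromal markers had reads in every library, and they took 0.774% to 1.61% of reads in BMSC-CT, 1.28% to 1.58% in BMSC-C, 5.41% to 6.34% in BF-D and 6.69% to 6.91% in BF-C. Chondrocyte markers took at most 0.0152% of reads in BMSC-CT and 0.00499% in BMSC-C, with Matn3 and Col9a1 at 0 in all BMSC-CT libraries, against 0.0325% to 0.0395% in BF-D and 0.0478% to 0.0505% in BF-C. The BMSC libraries also held macrophage RNA. Macrophage markers took 1.07% to 1.36% of reads in BMSC-CT and 0.860% to 1.03% in BMSC-C, against at most 0.00641% in BF-D and 0.00440% in BF-C, where Mrc1 was at 0. Their part in the ribosomal protein values was not tested. Lymphoid, endothelial and erythroid markers took at most 0.0641% of reads in any library.

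A cell needs most ribosomal proteins in equal numbers, and their mRNAs are among the most abundant and most evenly matched in it. In vertebrates these mRNAs begin with a run of pyrimidines, the TOP motif, through which the mTOR pathway and the RNA-binding protein Larp1 control their translation. Most of these mRNAs are short. In bulk RNA, fewer cells of a type and less RNA per cell cannot be told apart.

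The start of the transcript, where the TOP run lies, is shown for 11 members, 15 bases before and 15 from the annotated start on (RefSeq, build GRCr8). Capitals mark the longest unbroken run of C and T that touches the 10 bases on either side of the start, if it has at least 6 letters. Of the members' reads, Rps28, Rps27, Rps15, Rps14 and Rps27l took a higher and Rps3a, Rpl5, Rpl3 and Rpl7l1 a lower share in every BMSC-CT than in any BMSC-C library. Rplp0 is shown for its high level per length, and Rpl22l1 as a paralog.
Rps28, chr7:15311319-15311348, minus strand: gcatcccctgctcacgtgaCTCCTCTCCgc
Rps27, chr2:177964592-177964621, minus strand: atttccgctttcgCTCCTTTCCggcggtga
Rps15, chr7:10068101-10068130, minus strand: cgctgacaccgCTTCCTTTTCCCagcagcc
Rps14, chr18:56498245-56498274, plus strand: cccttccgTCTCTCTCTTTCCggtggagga
Rplp0, chr12:46718376-46718405, minus strand: gaccgcaccgcaCTTCTCTCgccaggcgtc
Rps3a, chr2:173827028-173827057, minus strand: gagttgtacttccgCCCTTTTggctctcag
Rpl5, chr14:1995211-1995240, minus strand: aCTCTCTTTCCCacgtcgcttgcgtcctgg
Rpl3, chr7:113507976-113508005, minus strand: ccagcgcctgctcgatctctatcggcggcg
Rpl7l1, chr9:21695703-21695732, plus strand: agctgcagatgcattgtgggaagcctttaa
Rps27l, chr8:76443643-76443672, plus strand: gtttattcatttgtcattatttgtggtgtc
Rpl22l1, chr2:113683181-113683210, plus strand: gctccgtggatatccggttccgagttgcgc
The run was 13 letters in Rps14, 12 in Rps15 and 9 in both Rps27 and Rps28. It was 11 letters in Rpl5, 8 in Rplp0 and 7 in Rps3a. Rpl3 and the paralogs Rpl7l1, Rps27l and Rpl22l1 had no run over 5 letters in this window, so members with and without a run stood on both sides. RefSeq promoters matched 53 of the 68 symbols, with 54 entries. A run of at least 6 pyrimidines on the sense strand overlapped the 10 bases on either side of the start in 39 of the 54 (72.2%), against 28.3% of 33469 rat promoters. Such a run need not include the start itself. The letters CTTTCC, which can lie inside such a run, were within 25 bases of the start on either strand in 33.3% of the members' promoters and 4.395% of all promoters. CGGAAG, on either strand of the 300 bases, was found in 53.7% of the members' and 16.6% of all promoters. TATAAA, searched on both strands of the 250 bases before the start, was as frequent in the members' as in all promoters, at 12.96% and 12.93%. These matches describe letters in annotated windows and are no measure of binding or translation.

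Ribosomal protein genes took a larger share of the RNA in every BMSC-CT library than in any BMSC-C library, but the size of that difference rested on 1 library. The members held 5.39%, 6.63% and 15.5% of the reads of BMSC-CT replicates 1, 2 and 3, and 4.14%, 4.91% and 5.35% of those of BMSC-C. Replicates 1 and 2 lay just above the highest control and replicate 3 far above all others. The mean was 9.16 ± 5.49% in BMSC-CT and 4.80 ± 0.613% in BMSC-C (SD, n = 3 each).

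**Figure D1:**
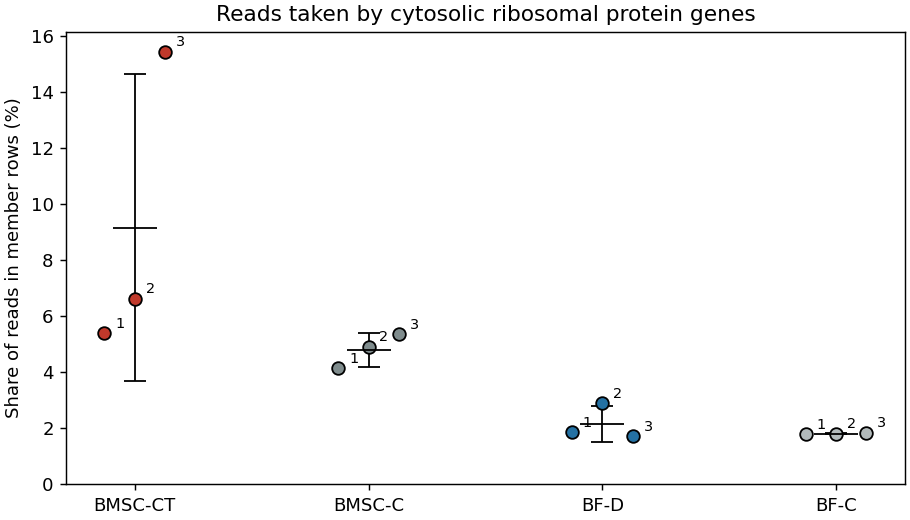
Share of reads (%) in the 72 ribosomal protein rows, with 1 point per library (numbers are replicates) and the mean ± SD of each group as bars. BMSC-CT replicate 3 lies at 15.5% and the other BMSC libraries between 4.14% and 6.63%, while 5 of the 6 BF libraries lie between 1.71% and 1.85% and BF-D replicate 2 at 2.88%.

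In docetaxel-treated cells the groups overlapped. BF-D replicates 1, 2 and 3 spent 1.85%, 2.88% and 1.71% of reads on the members, and the BF-C replicates 1.77%, 1.80% and 1.83%. The means were 2.15 ± 0.642% in BF-D and 1.80 ± 0.0285% in BF-C (SD, n = 3 each). BF-D replicate 2 was high and replicate 3 below every control. The BF libraries spent a smaller share on the members than any BMSC library, which is given as a description because the 2 tables were normalized separately.

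Within each comparison, the reads were divided between the subunits in nearly the same way in both groups. Large-subunit rows held 1.43 ± 0.0192 times the reads of small-subunit rows in BMSC-CT and 1.45 ± 0.0417 times in BMSC-C (SD, n = 3 each). The ratio was 1.60 ± 0.0448 in BF-D and 1.60 ± 0.0173 in BF-C (SD, n = 3 each). Across the BMSC-CT libraries, replicate 3 included, the ratio ran from 1.41 to 1.45.

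Gene by gene, 71 of the 72 members had a positive fitted change in BMSC-CT, yet none passed the test over all 6 libraries. Changes are differences of log2(normalized count + 1), tested with limma over 16818 genes at a Benjamini-Hochberg adjusted p under 0.05. By limma 0 members were called higher, where 7.70% of all genes were, and 0 lower, where 10.9% were; 15 (20.8%) had an unadjusted p below 0.05 on the higher side, where 17.0% of all genes did, and 0 on the lower, where 21.6% did. On whole reads recovered from the tables, edgeR's quasi-likelihood test called 1 member higher and 0 lower (backgrounds 8.05% and 9.51%). That member is Rpl39l, whose mean of 227 in BMSC-CT and 64.5 in BMSC-C put it over the threshold of 100 through the treated group only, so its calls support nothing. It is also 1 of the members in each count above 0 of higher calls given below for BMSC-CT. DESeq2 called 38 and 0 (backgrounds 16.3% and 16.4%), and limma-voom 0 and 0 (backgrounds 8.04% and 11.9%). Unadjusted p was below 0.05 on the higher side in 45 members (62.5%) with edgeR, where 19.0% of all genes did so. With DESeq2 it was 55 (76.4%, against 21.3%) and with limma-voom 28 (38.9%, against 17.1%). On the lower side it was 0 with each, against 19.7% to 22.7% of all genes. The members share libraries, so these counts are not independent. Limma with a quality weight per library called 56 and 3 (backgrounds 33.7% and 39.8%). The members' median log2 fold change was 1.24, against -0.15 over all genes. In 50 members all 3 BMSC-CT libraries lay above all 3 controls, which held for 23.3% of genes, and in 1 member, Rpl7l1, all lay below, which held for 28.9% of genes.

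BMSC-CT replicate 3 was the highest of the 6 libraries in 71 of 72 members, against 34.6% of genes tested. Its value was at the median 4.19 times the mean of replicates 1 and 2, with a range of 0.263 in Rpl7l1 to 7.79. Without that library 20 members rose (background 18.3%) and 1 fell (background 22.1%). The median became 0.56, against -0.07 over all genes, and 65 of 72 changes stayed above 0. Replicates 1 and 2 were both above all controls in 50 members, against a background of 30.8%, and both below in 5, against 33.9%. The members called higher were thus 27.8% of all members, somewhat above the background, and falls were rarer than among all genes.

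The small-subunit proteins Rps28, Rps27 and Rps15, the large-subunit protein Rpl41 and the less abundant row of Rplp1 had the largest fitted changes in BMSC-CT. Rps28 had 5429, 5981 and 28853 normalized counts in BMSC-CT, against 1798, 2621 and 3169 in BMSC-C. All treated libraries lay above all controls, replicate 3 by far. The log2 difference was 1.99 ± 0.658 (SE; limma adjusted p = 0.0777), and 1.21 ± 0.244 when BMSC-CT replicate 3 was left out (limma adjusted p = 0.0129). Rps27, whose protein carries a zinc finger, had 11915, 19092 and 81811 normalized counts in BMSC-CT and 8183, 5841 and 7672 in BMSC-C. Its log2 difference was 1.89 ± 0.687 (SE), and 1.08 ± 0.252 without replicate 3 (limma adjusted p = 0.0206). Rps15, a protein of the small-subunit head, had 25110.3, 39273 and 171359 normalized counts in BMSC-CT, against 12139, 15269 and 18556 in BMSC-C. It too separated the groups without the outlying library, by 1.06 on the log2 scale (limma adjusted p = 0.0265). Rpl41, the smallest protein of the ribosome, averaged 109988 ± 122494 normalized counts in BMSC-CT and 20287 ± 5344 in BMSC-C (SD, n = 3 each). The SD of the treated group exceeded its mean; the log2 difference was 1.86, and 0.96 without replicate 3.

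At the other end stood Rpl7l1, Rpl3, Rpl5, the less abundant row of Rpl7a and Rpl5l1. Rpl3, which lies next to the peptidyl transferase centre, had 13741, 14419 and 39351 normalized counts in BMSC-CT, against 17328, 17899.6 and 19326 in BMSC-C. Treated replicates 1 and 2 lay below every control and replicate 3 above them all. Rpl5, which with Rpl11 and the 5S RNA forms the particle that binds Mdm2, had 10212, 10583 and 36797 in BMSC-CT and 12889, 15362 and 13979 in BMSC-C. Its log2 difference was 0.17 over all libraries and -0.43 ± 0.135 without replicate 3 (SE; limma adjusted p = 0.0476), the single fall among the members there. Its partner Rpl11 had 8857, 10152 and 35619 in BMSC-CT and 6353, 5879 and 6779.9 in BMSC-C. Rpl11 rose by 0.58 ± 0.130 without replicate 3 (SE; limma adjusted p = 0.0175), so both members of that particle were called there, with opposite signs.

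Rpl7l1, a paralog of Rpl7 known for ribosome assembly, moved against the rest. It had 955, 1093 and 269 normalized counts in BMSC-CT and 1276, 1264 and 1345 in BMSC-C. It was lowest in the very library in which nearly all other members were highest. The log2 difference was -0.98 ± 0.529 (SE; limma adjusted p = 0.211), and -0.34 when replicate 3 was left out (limma adjusted p = 0.0549). The 4 members nearest the median were Rpl27a, Rpl22l1, Rpl11 and Rps18. Rps18 had 19769, 27954 and 79092 normalized counts in BMSC-CT and 10209, 15839 and 18728 in BMSC-C, a log2 difference of 1.28 (limma adjusted p = 0.135). Rps27a, which encodes ubiquitin fused to a small-subunit protein, differed by 1.62 (limma adjusted p = 0.119). Rpsa, the laminin receptor and a small-subunit protein, differed by 0.94 (limma adjusted p = 0.297).

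**Figure D2:**
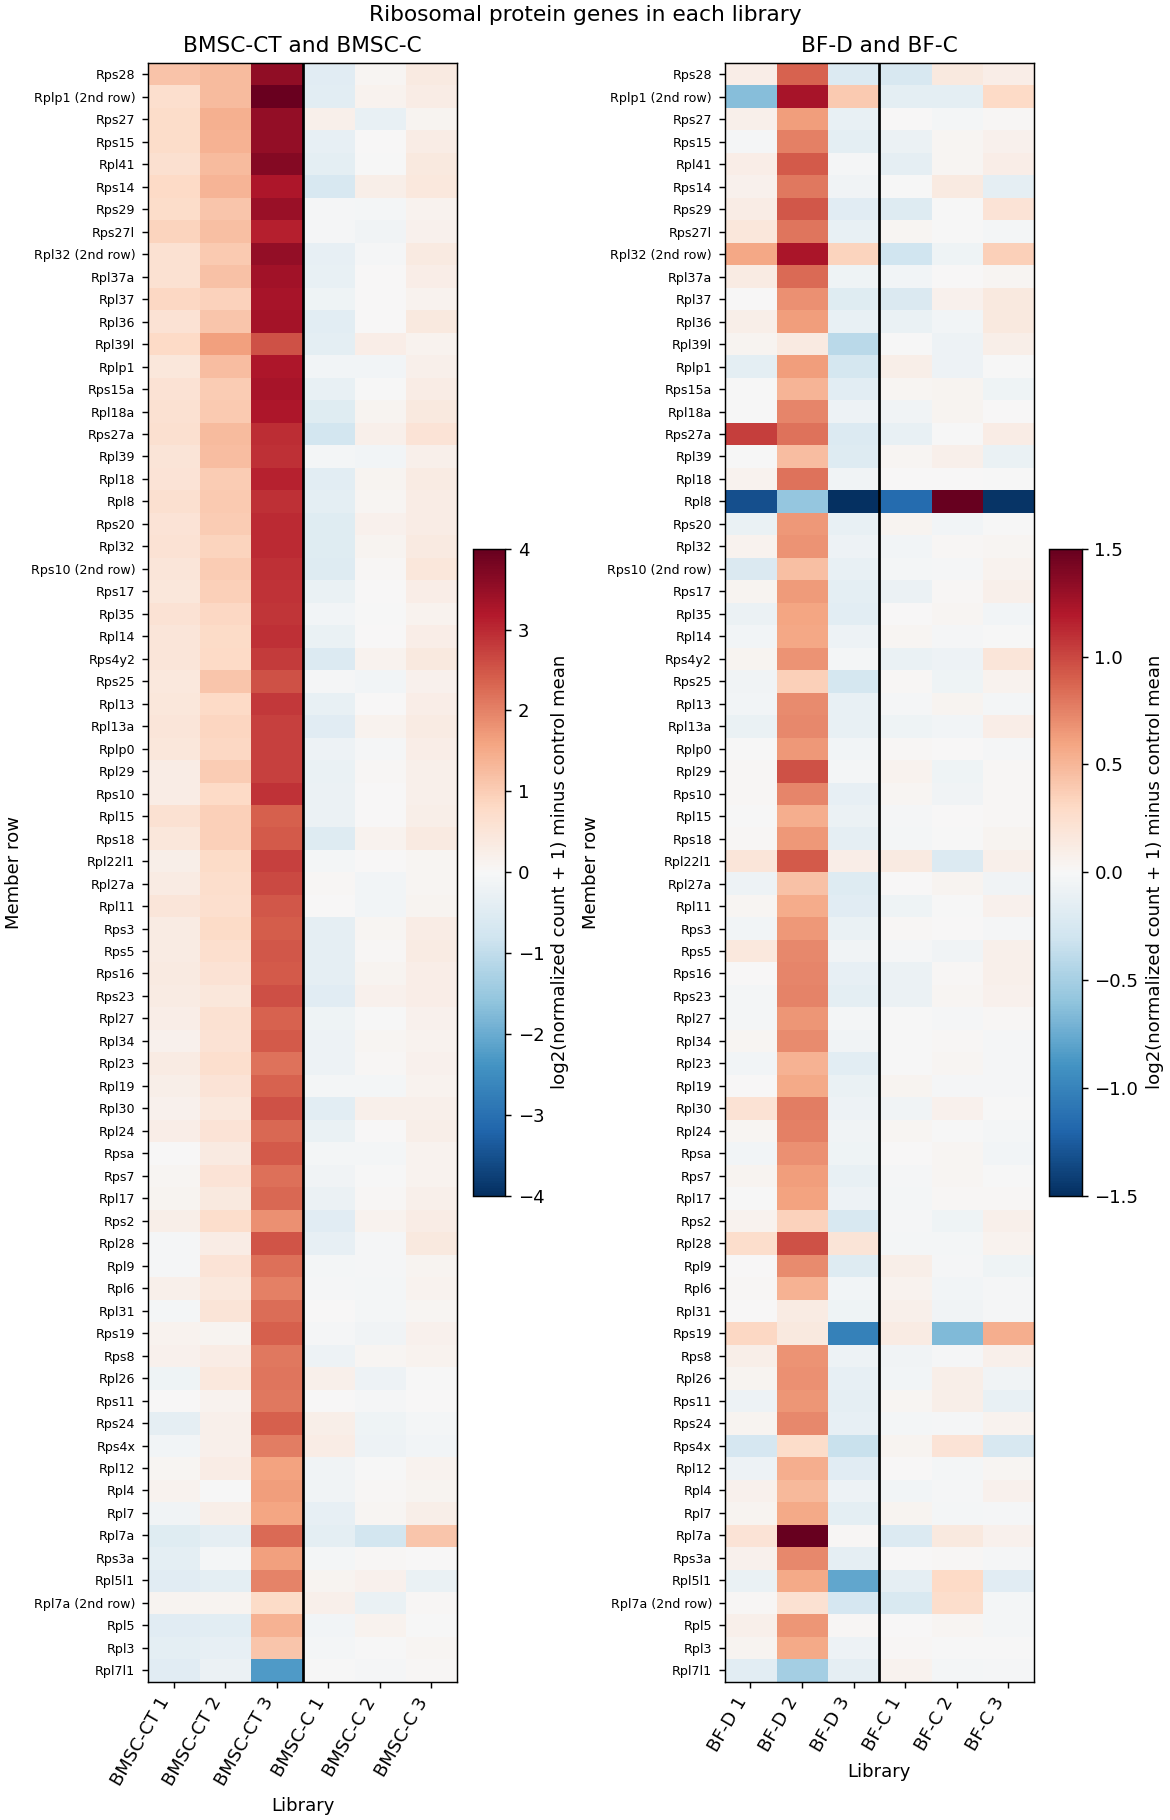
Each of the 72 member rows in each library, as log2(normalized count + 1) minus the mean of the 3 control libraries of its table, ordered by the change in BMSC-CT; colours end at 4 in the left and 1.5 in the right panel, so larger values share the end colour. BMSC-CT replicate 3 is the highest of its table in 71 rows and BF-D replicate 2 in 67, against 34.6% and 32.1% of genes tested. Rpl7l1 in the bottom row is lowest in BMSC-CT replicate 3.

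The change in BMSC-CT followed gene length. Members ranged from 153 to 5151 bases with a median of 631, against 2125 over all genes tested. BMSC-CT replicate 3 read short genes high and long genes low. Across 16746 genes its deviation from the mean of the other BMSC-CT libraries had a Spearman rho of -0.399 with length. Taken in the same way, rho was 0.376 and 0.320 in replicates 1 and 2, whose reference includes replicate 3. In the controls it was -0.176 to 0.212. Across the 72 members the log2 fold change had a rho of -0.618 with length, and -0.594 without replicate 3; the points share libraries, and no test was made. Set beside other genes of the same length and a mean of at least 100, the members stood out less in the classes up to 2000 bases, which hold all but Rpl11 and Rpl7. Up to 500 bases, 24 members had a median change of 1.62, against 1.23 in 223 other genes. Between 500 and 1000 bases, 33 members had 1.06, against 0.93 in 691 genes. Between 1000 and 2000 bases, 13 members had 0.90, against 0.34 in 2843 genes. Without replicate 3 the same classes gave 0.83 against 0.58, 0.46 against 0.44, and 0.19 against 0.16. Rpl11, between 2000 and 4000 bases, had 1.22 against -0.11 over all libraries, and Rpl7, over 4000 bases, 0.56 against -0.71. Each of these classes holds 1 member. All lengths are the deposited gene lengths, and whether they match the mRNAs present in these cells was not tested, so no excess is read from Rpl11 and Rpl7. Removal of the trend with length, described below, used the same lengths and moved Rpl11 to 1.72 and Rpl7 to 1.22.

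**Figure D3:**
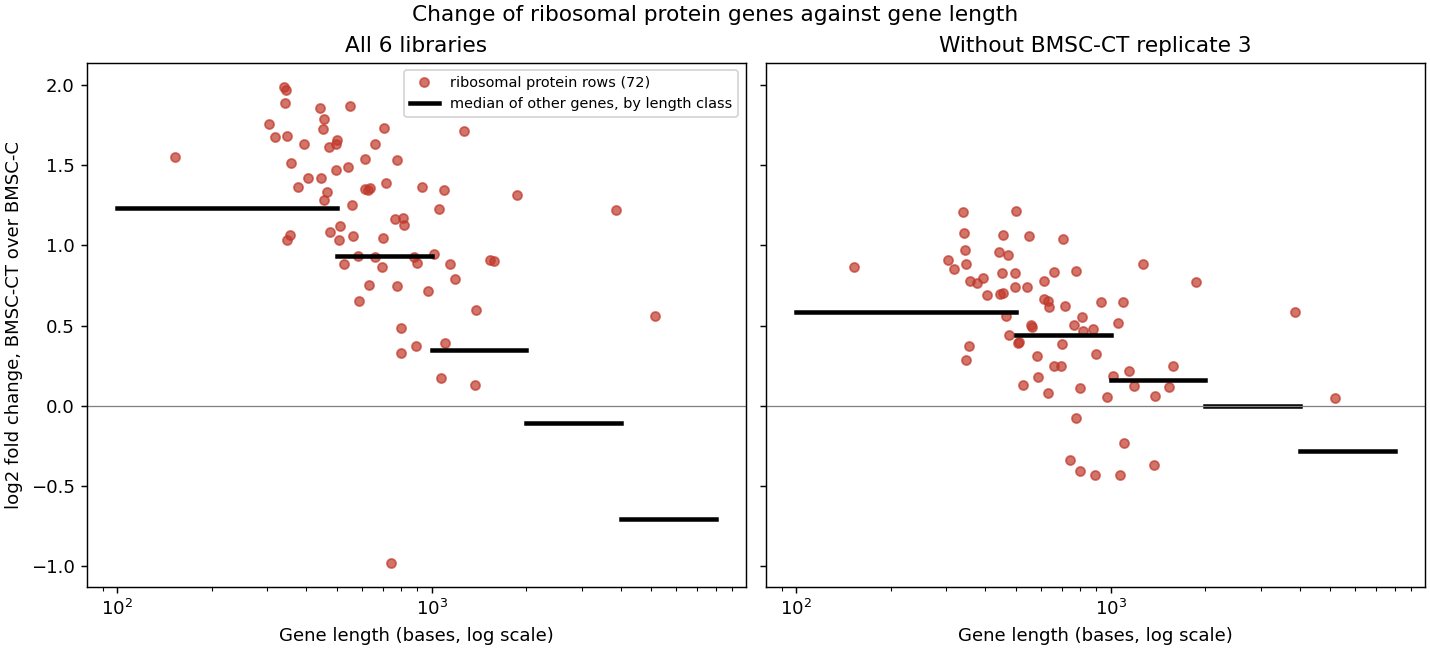
Log2 fold change of BMSC-CT over BMSC-C for each member row (points) against gene length in bases on a log scale, with the median of other genes of a mean of at least 100 in each length class as bars; the left panel uses all 6 libraries and the right panel leaves out BMSC-CT replicate 3. Changes fall with length in members and other genes alike, and in the class of 500 to 1000 bases without replicate 3 the medians are 0.46 and 0.44.

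With the trend of each library with length removed, 4 members were called higher (background 12.5%), Rps28, Rps27l, Rpl39 and Rpl39l, and 0 lower (background 10.7%). The members' median was then 0.88, against 0.03 over all genes. With the trend removed and BMSC-CT replicate 3 left out, 21 rose (background 22.4%), 2 fell (Rpl5 and Rpl7l1; background 20.8%) and the median was 0.42, against 0.02. The 4 and the 21 members were 5.56% and 29.2% of all members, below and not far above the backgrounds of these fits, while the median was positive in both.

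The share of single genes within the ribosomal protein reads is given for some of the members whose BMSC-CT and BMSC-C libraries did not overlap. Limma on libraries scaled to the members' median called none of them. Rps28 took 0.629%, 0.522% and 0.671% of the members' reads in BMSC-CT and 0.298%, 0.370% and 0.389% in BMSC-C. Rps15 took 2.91%, 3.43% and 3.98% against 2.01%, 2.16% and 2.28%. Rps14, a small-subunit protein near the platform, took 2.04%, 2.28% and 2.22% against 1.09%, 1.69% and 1.68%. In each, all 3 treated libraries lay above all controls. Rpl3 went the other way, with 1.59%, 1.26% and 0.915% in BMSC-CT and 2.87%, 2.53% and 2.37% in BMSC-C. Rpl5 took 1.18%, 0.924% and 0.855% against 2.14%, 2.17% and 1.72%, and Rps3a 2.13%, 1.97% and 1.74% against 3.80%, 3.52% and 2.96%. Here all 3 treated libraries lay below all controls. Of the genes just named, those with a higher share are short (Rps28 339 bases, Rps15 552, Rps14 456) and those with a lower share longer (Rpl3 1378, Rpl5 1069, Rps3a 1100). Length did not divide all members in this way. Rpl37a, of 1269 bases, took 1.31%, 1.45% and 1.79% in BMSC-CT against 1.00%, 1.07% and 1.11% in BMSC-C. Rpl12, of 586 bases, took 1.13%, 0.994% and 0.658% against 1.41%, 1.30% and 1.27%. A step added after the data were seen scaled the libraries to the median of the members. Then 24 members lay above all controls and 19 below (backgrounds 3.82% and 46.6%). Limma called 0 in either direction (backgrounds 0.250% and 2.56%), while 3 (4.17%) on either side had an unadjusted p below 0.05. Of all genes, 1.47% did so on the higher and 24.5% on the lower side. The step itself puts the members' median near 0, at 0.047, and that of all genes at -1.34. The split of the members and its distance from the backgrounds therefore follow from the step and are no finding.

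**Figure D4:**
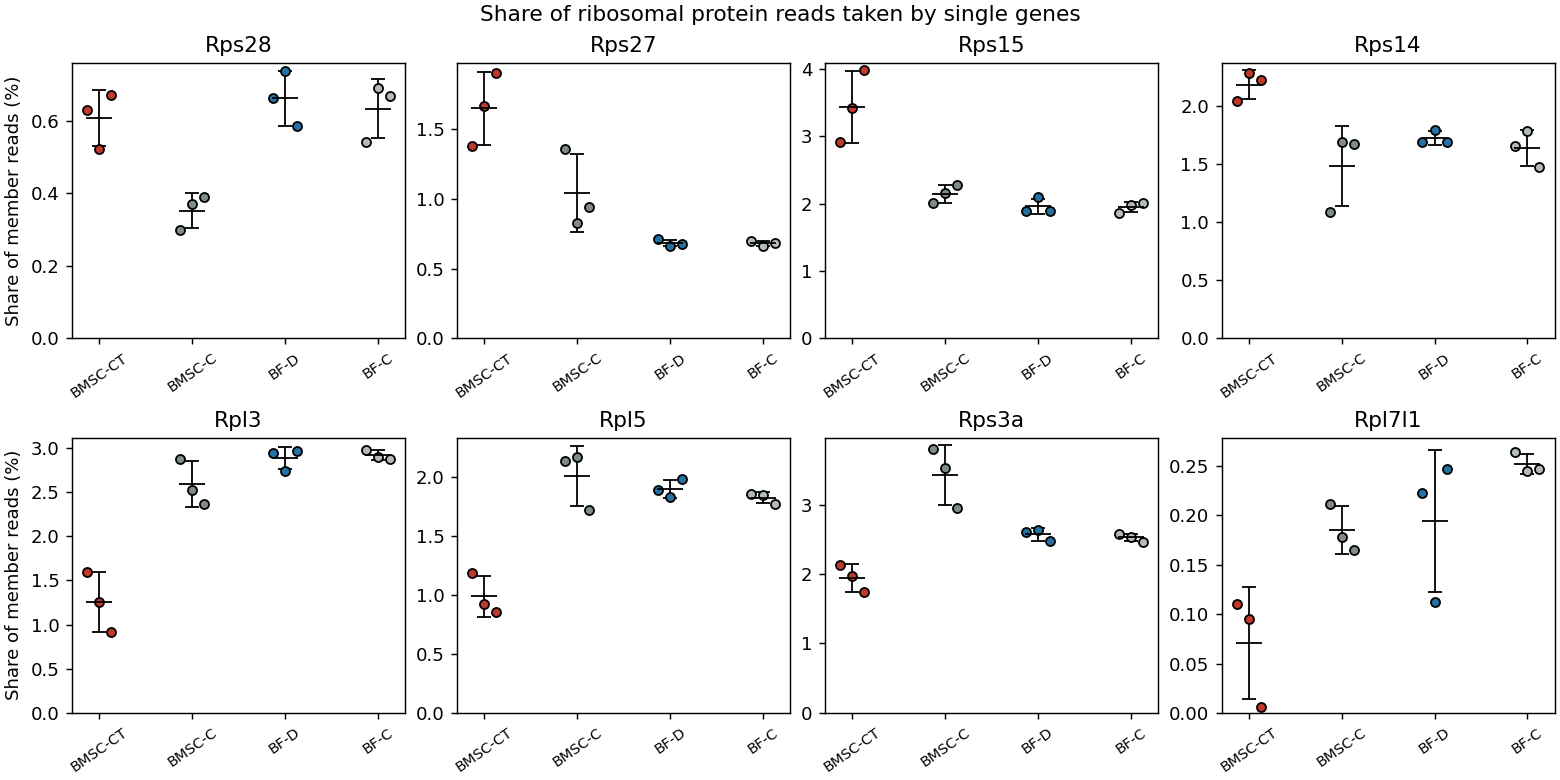
Share of all member reads (%) taken by 8 genes in each library, with mean ± SD bars per group. Rps28, Rps27, Rps15 and Rps14 lie higher in BMSC-CT than in BMSC-C, as Rps15 with 2.91% to 3.98% against 2.01% to 2.28%, while Rpl3, Rpl5, Rps3a and Rpl7l1 lie lower; BF-D and BF-C overlap in all 8 panels.

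No member passed the test in docetaxel-treated cells, and BF-D replicate 2 stood apart from the other BF libraries. Over 17076 genes limma called 0 members higher and 0 lower (background 0.00586% in each direction), and 2 members, Rpl28 and the less abundant row of Rpl32, had an unadjusted p below 0.05, both on the higher side, which is 2.78% of members and 3.26% of all genes. On the recovered reads edgeR, DESeq2 and limma-voom also called 0 in either direction (backgrounds 0.00586% in each direction for edgeR, 0.217% higher and 0.205% lower for DESeq2, and 0% for limma-voom). The median change was 0.19, against -0.00 over all genes, and 65 members were above 0. BF-D replicate 2 was highest of the 6 libraries in 67 members, against 32.1% of genes tested. It lay at a median of 1.62 times the mean of replicates 1 and 3, against 0.975 over all genes. That library too read short genes high, with a rho of -0.352 across genes between length and its deviation from the mean of the other BF-D libraries. With the trend with length removed, the members' median was 0.095, against 0.011 over all genes, and 57 members were above 0. Members and other genes of the same length had medians of 0.20 and 0.14 up to 500 bases, 0.19 and 0.17 between 500 and 1000, and 0.19 and 0.10 between 1000 and 2000. Without BF-D replicate 2 the median was -0.05 and 14 members were above 0. Limma then called 1 higher, Rpl28 (background 0.673%), and 0 lower (background 0.761%). In that fit 11 members (15.3%) had an unadjusted p below 0.05 on the lower side, against 6.38% of all genes. On the higher side it was 1 (1.39%), against 5.19%. The members share libraries, so these counts are not independent. Over all 6 libraries the groups did not overlap in 1 member on the higher side, Rpl28, and 1 on the lower, Rpl7l1 (backgrounds 7.78% and 9.04%). After scaling to the members' median they did not overlap in 4 and 5 (backgrounds 2.03% and 8.67%). That step itself puts the members' median near 0, so these counts and their backgrounds are no finding. Replicates 1 and 3 were both above all controls in 1 member, against 13.1% of genes, and both below in 15, against 14.6%.

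Rpl28, a large-subunit protein, had 7136, 11566 and 6811 normalized counts in BF-D, against 5857, 5842 and 6186 in BF-C. All treated libraries lay above all controls. The log2 difference was 0.47 ± 0.189 (SE; limma adjusted p = 0.706), and 0.23 ± 0.0413 when BF-D replicate 2 was left out (limma adjusted p = 0.0206). It took 2.33%, 2.42% and 2.42% of the members' reads in BF-D and 1.97%, 1.93% and 2.03% in BF-C, so that its share was also higher within replicate 2. Rps27a had 3307, 2852 and 1402 normalized counts in BF-D, against 1501, 1609 and 1747 in BF-C. Treated replicates 1 and 2 were high and replicate 3 was below every control (log2 difference 0.55, limma adjusted p = 0.706). The more abundant row of Rpl7a had 374, 1332 and 327 against 280, 359 and 337, a log2 difference of 0.75 carried by replicate 2. The less abundant row of Rpl32 differed by 0.71 and Rpl22l1 by 0.40 (limma adjusted p = 0.706 each). That Rpl32 row, with a mean of 144 in BF-D and 86.3 in BF-C, reached 100 through BF-D only, so its difference supports nothing.

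Rpl8, a large-subunit protein near the peptidyl transferase centre, had the lowest change, and it came from a single control. It had 152, 255 and 135 normalized counts in BF-D and 170, 2366 and 137 in BF-C. The log2 difference of -1.13 ± 0.968 (SE; limma adjusted p = 0.718) was 0.19 without BF-C replicate 2. Rps19, the small-subunit protein best known from Diamond-Blackfan anaemia in humans, had 1014, 903 and 403 in BF-D and 893, 515 and 1189 in BF-C, with overlapping groups. Rpl7l1 had 680, 535 and 694 against 786, 743 and 752, with all 3 treated libraries below all controls and, as in the other table, the lowest value in the library that was highest for most members (log2 difference -0.27, limma adjusted p = 0.706). Rps4x and Rpl5l1 differed by -0.11 and -0.10. Nearest the median were Rpl13, Rps7, Rps23 and Rps18; Rpl13 had 5850, 9833 and 5540 in BF-D and 5949, 6167 and 5905 in BF-C, the pattern of most members.

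The order of the members by level hardly differed between groups. Measured as reads per kilobase, scaled to the depth of each library, the level of Rpl41 was highest, followed by Rpl13a, the more abundant row of Rplp1 and Rplp0; Rplp0 and Rplp1 form the stalk that recruits translation factors. Spearman's rho of the 72 levels was 0.943 between BMSC-CT and BMSC-C and 0.993 between BF-D and BF-C, and at least 0.914 between any 2 groups. These values describe 72 genes that share libraries, and no test was made.

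Between BF-C and BMSC-C, the share of member reads differed most in Rpl39l (log2 ratio 3.06), Rpl8 (2.98, through BF-C replicate 2), Rps27l (1.56) and Rps27a (-1.22). The other paralogs Rpl22l1, Rpl7l1 and Rpl5l1 stood at 0.60, 0.45 and 0.25. Rps27l is a p53-responsive near-copy of Rps27. For every 100 reads of Rps27, Rps27l had 73.7, 78.4 and 69.5 in BF-D and 70.1, 70.5 and 67.0 in BF-C, but 17.4, 13.4 and 11.9 in BMSC-CT and 13.4, 17.2 and 16.6 in BMSC-C. The 2-sided exact permutation test gave p = 0.3 between BF-D and BF-C and p = 0.6 between BMSC-CT and BMSC-C, and the groups overlapped in both. Rpl39l, in mice best known from male germ cells, had 20.4, 15.7 and 17.0 reads per 100 of Rpl39 in BF-D and 19.2, 17.7 and 22.5 in BF-C. In BMSC-CT it had 3.14, 3.44 and 1.98, and in BMSC-C 2.04, 3.33 and 2.46. These ratios are formed within a library, so the scaling of the tables does not enter, but the BF and BMSC libraries were compared without a test. Rpl7l1 had 6.38, 5.52 and 0.539 reads per 100 of Rpl7 in BMSC-CT and 9.52, 7.11 and 6.90 in BMSC-C, which did not overlap (2-sided exact permutation p = 0.1, the smallest possible), and 9.05 ± 3.19 in BF-D against 11.5 ± 0.0769 in BF-C (SD, n = 3 each). Rps4y2 had 19.2, 19.5 and 21.6 reads per 100 of Rps4x in BMSC-CT and 7.20, 16.2 and 17.8 in BMSC-C, which did not overlap either (2-sided exact permutation p = 0.1), and 26.2 ± 1.07 in BF-D against 21.2 ± 5.68 in BF-C (SD, n = 3 each). Rpl5l1 had 1.97 ± 0.501 reads per 100 of Rpl5 in BMSC-CT, 1.70 ± 0.303 in BMSC-C, 1.79 ± 0.446 in BF-D and 2.25 ± 0.389 in BF-C (SD, n = 3 each). How the deposited counting treated reads that match several of these near-identical copies is not given, so values of paralogs and of symbols with 2 rows are uncertain. Whether it also affected the levels of other members, and with them the order by level, was not tested.

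**Figure D5:**
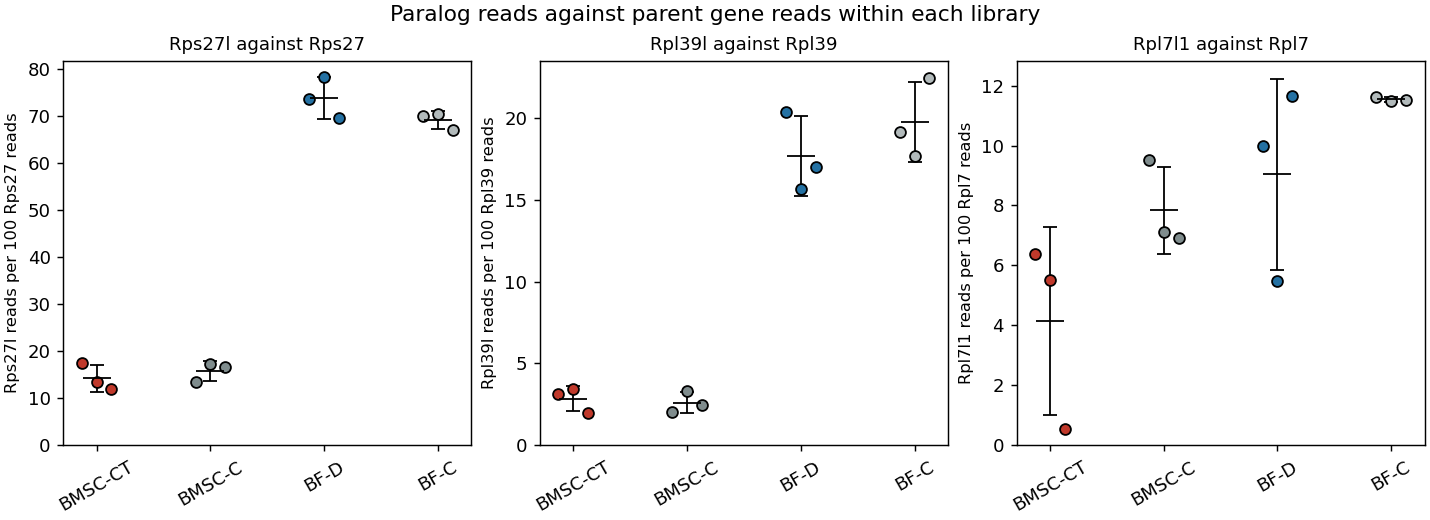
Reads of 3 paralogs per 100 reads of their parent gene in each library, with mean ± SD bars per group. Rps27l and Rpl39l lie several-fold higher in the BF than in the BMSC libraries (Rps27l 67.0 to 78.4 against 11.9 to 17.4), and Rpl7l1 is lowest in BMSC-CT replicate 3, at 0.539.

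Genes that make or regulate the ribosome had medians nearer 0 than the members, or below 0, in BMSC-CT (limma, with the same backgrounds of 7.70% higher and 10.9% lower). The median over all genes in that fit was itself -0.15, so a list's median below 0 alone is no fall against other genes. The polymerase that transcribes ribosomal RNA and its factors had 0 of 13 genes higher and 4 lower (median -0.11), with Taf1d at 30.9 ± 13.9 normalized counts in BMSC-CT and 129 ± 32.3 in BMSC-C, and Twistnb at 82.2 ± 32.7 and 334 ± 112 (SD, n = 3 each). Of 47 ribosome biogenesis genes 1 rose and 7 fell (median -0.29), and 1 and 16 without BMSC-CT replicate 3 (backgrounds of that fit 18.3% and 22.1%, here and below). With the trend with length removed the median was 0.19 for the polymerase and 0.047 for the initiation factors, of opposite sign, and -0.26 for the biogenesis genes, against 0.03 over all genes. Nop58, a core protein of the snoRNA particles that methylate ribosomal RNA, had 220, 191 and 211 normalized counts in BMSC-CT and 1032, 950 and 656 in BMSC-C. It fell by 2.06 on the log2 scale (limma adjusted p = 0.00369), evenly in all treated libraries. Gtpbp4, a nucleolar GTPase, fell by 1.56, and Ebna1bp2, an assembly factor of the large subunit, rose by 4.50 (limma adjusted p = 0.0148 and 0.00827). Ebna1bp2 had 75.0, 79.1 and 311 normalized counts in BMSC-CT and 2.44, 6.77 and 5.20 in BMSC-C, where it was near the floor. In BF-C it had 78.8, 5.34 and 4.92, so this row also varied widely within a group. Of 28 initiation factors 0 rose and 5 fell (median -0.22), among them Eif4a2 by 1.39, Eif2s2 by 1.28 and Eif3j by 1.28. Of 21 TOP mRNAs outside the ribosome 0 rose and 1 fell, Nap1l1, by 1.19. Their median was 0.52, and -0.02 without replicate 3, and they took 2.40 ± 0.206% of reads in BMSC-CT and 2.36 ± 0.0932% in BMSC-C (SD, n = 3 each).

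Genes of other complexes with small proteins had positive medians too. Short subunits of the respiratory chain, with a median length of 588.5 bases, had a median change of 1.13, and 0.50 without BMSC-CT replicate 3, where 14 of 64 rose, close to the background, and 1 fell. Over all libraries 1 rose, Cox6a2, a subunit of muscle cytochrome oxidase. Mitochondrial ribosomal protein genes, with a median length of 1129.5 bases, had a median of 0.81, and 0.35 without replicate 3; 2 of 72 rose, Mrpl3 and Mrps18a, and 22 rose and 4 fell without that library. The proteasome, a median length of 1417 bases, had 0.39, and -0.00 without replicate 3, with 1 of 37 higher and 1 lower. Among these 3 lists the median change was lower where the median length was greater, also with the trend with length removed, at 0.74, 0.67 and 0.34.

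Among 20 growth control genes 2 rose and 3 fell in BMSC-CT. Mycn, a growth-promoting transcription factor, had no read in any BMSC-CT library, against 15.4, 17.8 and 23.4 normalized counts in BMSC-C. Mxd4, a partner of Max that opposes Myc, rose by 1.40 (limma adjusted p = 0.00667), and Ddit4, an inhibitor of mTOR complex 1, fell by 1.00 (limma adjusted p = 0.0249). Among 13 genes of ribosome stress and p53, Cdkn1a, the p53 target that halts the cell cycle, rose by 1.41 and Eif2ak2, a kinase that stops initiation, fell by 1.20 (limma adjusted p = 0.0201 and 0.0352). Of 14 mitosis genes limma called 0 in either direction and 1 on each side had an unadjusted p below 0.05, while DESeq2 called 1 higher. In BF-D, limma and DESeq2 called 0 genes of any of these 10 lists in either direction. By limma at most 2 genes of a list on the higher side and 1 on the lower had an unadjusted p below 0.05. The lists' medians lay between -0.18 and 0.27, and between -0.13 and 0.08 without BF-D replicate 2.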

How the data were processed

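RNA from 12 rat libraries (4 groups of 3) was analysed in 2 tables, one for each comparison, that were normalized separately, so tests were made within a table only. The submitters' processing notes name Bowtie 0.12.2 and mm8, a build of the mouse genome, while the tables carry rat Ensembl IDs; the build behind the counts is therefore unknown, and no file coordinates are printed. How reads that match several genes were assigned is not given in the sources used here. The authors deposited normalized counts (a signal per gene and library), and these values are whole reads divided by 1 factor per library: 100% of them were whole within a tolerance of 0.01 reads, which gives back the reads and the depth of 15580310 to 19870047 per library. The log2 fold changes and p-values that the authors deposited were not used. All replicate pairs differed by more than sampling noise.

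Genes with a mean of at least 1 were tested with limma 3.58.1 (empirical Bayes with trend, R 4.3.3) on log2(normalized count + 1), with Benjamini-Hochberg adjustment over all genes tested and a threshold of 0.05; such fold changes understate changes of low genes. On recovered reads edgeR 4.0.16 and DESeq2 1.42.0 were alternatives, beside other scalings, filters and pseudocounts, a replicate block, each library left out, quality weights per library and removal of each library's trend with gene length. The procedure was run on simulated counts drawn gene by gene. The simulated libraries used for the calls included no outlying library, unlike these data, so nothing is concluded from that run. Ratios of paralog reads were compared with exact 2-sided permutation tests; shares of reads over all members are given without a p, since the members were chosen on level. Members and gene lists were chosen with earlier results of these data known. Named are the 5 largest and 5 smallest changes and the 4 nearest the median per comparison, the 4 highest levels per length, Rplp0, Rplp1, Rpsa, Rpl5, Rpl11 and Rps27a, the paralogs, up to 3 genes with the smallest adjusted p of each list, and the rows beside the level threshold. Rps14, Rps3a, Rpl37a and Rpl12 were picked after their values were seen, for their share of reads. Rows just inside the threshold of 100 were Rpl39l (mean 146) and Rps6 (mean 190 in the BMSC, 65.6 in the BF table) and, in the BF table, Rpl32 (115) and Rpl5l1 (124); just outside were a further row of Rps29 (58.2) and Rpl10l (68.5) in the BMSC table and Rps6 and Rpl31l4 (72.1) in the BF table. Of the 27 rows left out, 9 reached 100 in the BMSC table only and 18 in neither. Same-numbered libraries deviated together at r = 0.199, -0.0209 and 0.183 in the BMSC table and 0.0140, 0.0196 and -0.00285 in the BF table. Libraries with different numbers did so at -0.225 to 0.0891 and at -0.0348 to 0.0277. These values do not settle whether the BMSC libraries are paired, and the sources used here do not say so. The numbers were therefore not taken to pair libraries, and the replicate block was kept as an alternative.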

Additional observations from a re-analysis of the deposited data

How the results depend on the processing

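The members called higher in BMSC-CT, 0 by limma, were 1 with edgeR, 38 with DESeq2, 4 with quantile scaling (background 11.5%), 56 with a quality weight per library, 4 with the length trend removed and 21 with the trend removed and BMSC-CT replicate 3 left out. Leaving out 1 library gave 0 to 20, the 20 when BMSC-CT replicate 3 was the one left out; without replicate 1 it was 6 (background 8.87%). Members called lower, 0 by limma, were 3 with quality weights, 2 with the trend removed and BMSC-CT replicate 3 left out, and 0 to 1 with 1 library left out. The replicate number as a block called 4 higher in BMSC-CT (background 7.82%; Rps14, Rps27a, Rps28 and Rpl39l, which reached the level threshold through BMSC-CT only) and 0 in BF-D. With that block 43 members (59.7%) had an unadjusted p below 0.05 on the higher side in BMSC-CT, against 18.1% of all genes. On the lower side it was 0, against 22.3%. In BF-D 1 member was higher without BF-D replicate 2, also with the length trend removed, and 0 to 1 over the libraries left out. The median change in BMSC-CT was 0.82 with total-read scaling and 0.60 with quantile scaling. It was 0.047 when libraries were scaled to the members' median, a step chosen after the data were seen that itself puts this median near 0. Rpl3 was -0.32 with quality weights. Rpl5 was between -0.43 (BMSC-CT replicate 3 left out) and 0.49 with 1 library left out, -0.45 with quality weights and -0.52 with the trend removed and that replicate left out. Rpl5l1 was -0.45 with quality weights. Where no value above shows it, the cause was not tested. No depth was subsampled; with 3 libraries a group, 1 of them outlying, few libraries stand behind each call.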
